A study of Mus musculus with 5 samples.

Results

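The last interval of the time course, from day 10 to day 14 in the induction medium, was examined by setting the library labelled day 14 against the library labelled day 10. The members were genes that reached 10 expected counts in at least 1 of these libraries, which left 12784 of the 27729 genes in the tables. The cells in both libraries were mouse embryonic fibroblasts (MEFs) of the outbred ICR strain. Per the study's methods they were prepared from mid-gestation embryos without head and internal organs, were depleted of weakly attached cells by a short trypsin treatment, and were kept from day 0 in a chemically defined medium without serum, 5C, which contains N2 supplement, basic FGF, LIF, vitamin C and 2-mercaptoethanol. The labels name the medium 6C rather than 5C, and their treatment text lists day 15 where the sample itself is labelled day 14. The labels also give a lower number of cells per well than the study's methods. The study compared days 0, 2, 5, 10 and 14 to follow fibroblasts as they took on neuronal features, with 1 library of total RNA at each day.

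No day had a replicate, so the differences below have no replicate check and no test was made between the days. Values are normalized counts, that is, expected counts divided by a library size adjusted by the TMM method over the 5 libraries. Changes are log2 ratios of day 14 over day 10 after adding 1 to each normalized count, and a gene is said to have risen or fallen only where it passed 2-fold. The 95% intervals are exact intervals of the ratio of the read counts themselves and cover counting error only. Expected counts summed to 3885124 on day 10 and 3362149 on day 14, and a count of 3, taken as the floor, corresponds to a normalized count of 2.14 and 2.68.

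In an induction of this kind fibroblasts are given factors that favour neural cells while the serum that maintains them is withdrawn. Dividing cells copy their DNA and then switch on a shared set of mitotic genes, and cells that leave the cycle switch this set off. Immediate-early genes are transcription factors and feedback regulators that are induced by growth factors, depolarization or handling without new protein synthesis. Schwann cells, the glia of peripheral nerves, descend from the neural crest, express Sox10 throughout, and switch between an immature or repair state and a myelinating state. Fibroblast markers were present in both libraries, with 23 of 24 measured and 1 in each direction past 2-fold (Vim rose, the collagen receptor Ddr2 fell). That is 4.35% each way, against 4.39% of all genes tested that rose and 7.94% that fell. On the scales introduced below none rose, with 3 falls by TPM and none after length centring. The epithelial junction genes Epcam, Cdh1 and Ocln had 8 or fewer expected counts in each of these libraries. In bulk RNA, fewer cells of a type and less RNA per cell cannot be told apart.

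Between day 10 and day 14, 561 genes rose and 1015 fell past 2-fold, which is 4.39% and 7.94% of the genes tested. The counting interval also excluded no change for 522 of the rises and 882 of the falls. For comparison, 1659 of 12933 genes (12.8%) rose and 1188 (9.19%) fell from day 5 to day 10, an interval that shares the day 10 library. Short genes were higher and long genes lower on day 14: the median change was 0.46 in the shortest 10% of genes and -0.49 in the longest 10%, against a median of 0.03 over all genes. Changes were therefore also centred on the median of genes of like length, after which 476 genes rose (3.72%) and 930 fell (7.27%). With TPM, which lowers the median of all genes to -0.24, the calls divided into 308 rises and 1407 falls, so that rises made up 18.0% of the calls against 35.6% with TMM.

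**Figure D1:**
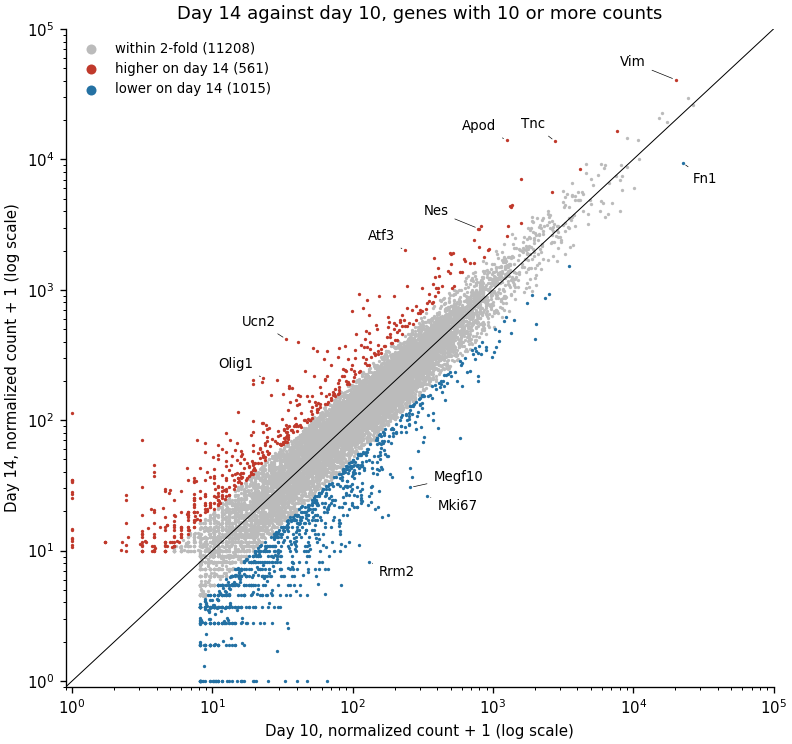
Normalized count plus 1 of each of the 12784 genes on day 10 (horizontal, log scale) and on day 14 (vertical, log scale), with the line of equality. Red points are the 561 genes past 2-fold higher and blue points the 1015 past 2-fold lower, and Apod, Tnc and Vim stand out above the line at high counts, with Fn1 below it.

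Mitotic genes were lower on day 14, and of the lists with 10 or more measured genes theirs had the largest share of members past 2-fold. Of 49 genes in the mitosis list, all were measured, 44 fell, none rose and 5 stayed within 2-fold, against a background of 7.94% of genes that fell. The median change was -2.26, and -2.31 after centring on length. Intervals lay wholly below 0 for 47 of the 49. The list was already lower over the interval before, with a median of -0.63 from day 5 to day 10. Its summed normalized counts were 3156, 5201, 5587, 3863 and 1059 on the 5 days.

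Mki67, the proliferation antigen Ki-67 that coats mitotic chromosomes, had normalized counts of 121, 309, 312, 340.0 and 25 at days 0, 2, 5, 10 and 14. It was steady from day 2 to day 10 and then dropped 13.6-fold, with a log2 change of -3.71 (interval -4.37 to -3.21). The gene lies at chr7:135689784-135716361, minus strand (GRCm38). Top2a, the topoisomerase that untangles sister chromatids, had 193, 172, 374, 265 and 35.5 and a change of -2.87 (interval -3.40 to -2.42). Day 14 held the lowest value of both genes in the course.

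Cenpf, a kinetochore protein, fell from 82 to 4.48 and Kif11, the motor that separates the spindle poles, from 62.5 to 3.67. Behind these values stand 5.01 and 4.11 expected counts on day 14, so that their log2 changes of -3.92 and -3.76 have wide intervals, -5.85 to -2.94 and -6.03 to -2.71. In all, 19 of the 49 members had fewer than 10 expected counts on day 14 and none had so few on day 10. Cyclin B1 (Ccnb1), which drives entry into mitosis, fell from 80 to 8.94, and Anln and Ect2, which build and position the cleavage furrow, fell from 160.0 to 17 and from 46.4 to 3.58. Foxm1 and Mybl2, transcription factors that switch on this gene set, fell by 2.31 and 2.90 on the log2 scale.

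The 5 members within 2-fold were Bub3, Cenpa, Aurka, Birc5 and Espl1. Bub3, a checkpoint protein that also has roles outside mitosis, went from 216 to 265 with an interval of 0.06 to 0.54. Cenpa, the histone variant of centromeres, went from 37.8 to 44.7, with an interval of -0.35 to 0.83 that includes no change. The log2 change was -0.80 for Aurka, -0.98 for Birc5 and -0.61 for Espl1.

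Mitotic genes are known to share 2 promoter elements, the cell cycle genes homology region (CHR, searched as TTTGAA) and the CCAAT box bound by NF-Y, and the promoters of the 4 members with the largest falls among those with 100 or more counts, 1 promoter entry and a CHR match are shown for this reason. Both motifs were searched on both strands in the 300 bases from 250 before to 50 after each RefSeq transcription start. A match to CHR was present in 29 of the 41 mitosis genes with a promoter entry (70.7%), compared with 14.1% of the 9867 tested genes with an entry and 20.2% of all 27025 genes with one. CCAAT was present in 29 of 41 (70.7%), compared with 43.3% and 41.1%. The sequences run 5′ to 3′ along the gene (RefSeq, GRCm38.p6), with CHR and CCAAT matches of either strand in capitals. They lie at chr1:189688037-189688336, minus strand for Cenpf, at chr7:135716330-135716629, minus strand for Mki67, at chr9:22389157-22389456, minus strand for Anln and at chr11:99024140-99024439, minus strand for Top2a.
Cenpf: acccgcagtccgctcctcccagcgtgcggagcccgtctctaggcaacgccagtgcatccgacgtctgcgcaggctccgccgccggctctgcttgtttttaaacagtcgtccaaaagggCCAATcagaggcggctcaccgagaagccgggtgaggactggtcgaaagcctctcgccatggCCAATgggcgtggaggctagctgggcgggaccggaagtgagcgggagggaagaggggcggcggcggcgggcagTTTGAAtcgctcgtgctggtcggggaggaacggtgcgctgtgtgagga
Mki67: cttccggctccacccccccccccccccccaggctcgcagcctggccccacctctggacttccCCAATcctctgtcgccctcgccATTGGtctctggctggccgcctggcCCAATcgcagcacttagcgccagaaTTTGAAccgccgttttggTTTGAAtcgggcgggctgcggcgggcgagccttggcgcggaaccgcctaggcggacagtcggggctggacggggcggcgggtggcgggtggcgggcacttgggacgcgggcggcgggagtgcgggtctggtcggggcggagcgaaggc
Anln: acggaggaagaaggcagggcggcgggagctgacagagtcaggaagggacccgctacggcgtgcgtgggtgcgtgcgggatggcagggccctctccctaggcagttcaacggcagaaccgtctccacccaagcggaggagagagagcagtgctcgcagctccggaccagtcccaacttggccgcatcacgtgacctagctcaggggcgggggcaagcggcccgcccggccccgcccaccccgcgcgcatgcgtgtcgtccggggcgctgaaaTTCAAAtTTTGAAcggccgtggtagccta
Top2a: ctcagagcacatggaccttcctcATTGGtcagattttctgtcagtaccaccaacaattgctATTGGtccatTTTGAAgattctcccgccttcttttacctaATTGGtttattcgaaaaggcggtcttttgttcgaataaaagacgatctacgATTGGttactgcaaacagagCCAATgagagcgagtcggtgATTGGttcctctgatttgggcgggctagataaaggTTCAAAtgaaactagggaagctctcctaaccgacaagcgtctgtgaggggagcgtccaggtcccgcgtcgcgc

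The promoters of Mki67, Anln and Top2a each held 2 CHR matches, and that of Cenpf held 1. Top2a carried 6 CCAAT matches, Mki67 3, Cenpf 2 and Anln none. The fall was not limited to genes with a match: the median change was -2.23 over the 29 members with CHR and -1.99 over the 12 members with a promoter entry and without it.

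Genes of DNA replication and S phase changed less. Of 50 measured members 11 fell (22%, background 7.94%), none rose and 39 stayed within 2-fold, with a median of -0.51. Rrm2, the regulatory subunit of ribonucleotide reductase and so of nucleotide supply, had normalized counts of 293, 181, 204, 130.0 and 7.15 on the 5 days and a change of -4.01 (interval -5.42 to -3.17), the largest fall of any gene named by the rule. DNA polymerase epsilon (Pole) fell from 63.6 to 9.64, and the repressive E2F factors E2f7 and E2f8 fell from 25.3 to 3.73 and from 28.6 to 4.47. Pold3 and Pold2, subunits of DNA polymerase delta, were higher within 2-fold, at 0.70 and 0.66, and on the TPM scale Pold3 was at -0.27. An E2F motif (TTTNNCGC) was present in 18 of 42 promoters of the S-phase list (42.9%), against 9.88% of tested genes and 5.93% of all genes, and CHR in 7 of 42 (16.7%).

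Among CDK inhibitors, cyclins D and p53 targets, 2 of 32 measured genes rose (6.25%) and 4 fell (12.5%), near the background of 4.39% and 7.94%. Btg2, an antiproliferative gene that is also induced early after stimulation, went from 311 to 1037, and the growth arrest gene Gadd45a from 299 to 695. Rbl1, the pocket protein p107, fell from 52.8 to 12.5 and the G1 kinase Cdk6 from 34.1 to 9.49, while Eda2r and Trp53inp1, both p53 targets, fell by 1.34 and 1.15 on the log2 scale. The anti-apoptotic gene Bcl2 was at 73.6 on day 10 and 82 on day 14, with an interval of -0.26 to 0.58.

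**Figure D2:**
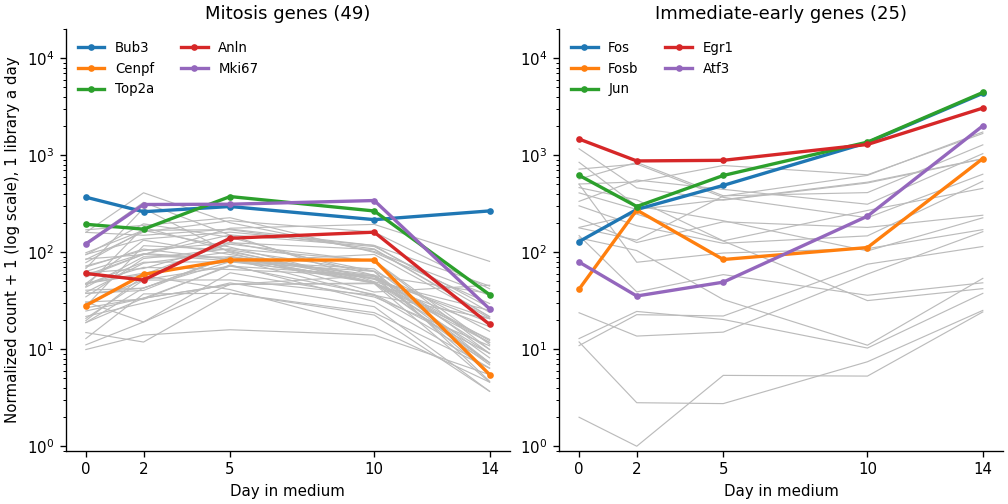
Normalized count plus 1 (vertical, log scale) over the 5 days (horizontal) for the 49 measured mitosis genes (left) and the 25 measured immediate-early genes (right), each line 1 gene and each point 1 library, with 5 named genes in colour in each panel. Most mitosis genes drop between day 10 and day 14 while Bub3 does not, and Atf3 and Fosb climb to 2007 and 922 on day 14.

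Immediate-early genes moved in the opposite direction. Of 25 measured members 17 rose (background 4.39%), none fell, and all 25 had a change above 0, with a median of 1.49 and 1.36 after centring. By TPM 14 of them rose. Intervals excluded no change for 23 of the 25, and Fosl1 and Maff were the exceptions.

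Atf3, a stress- and injury-induced bZIP factor at chr1:191170296-191218039, minus strand, had normalized counts of 78.2, 34.4, 48.1, 234 and 2007 on the 5 days. The first 3 libraries lay below 100 and day 14 was 8.57 times day 10, with a log2 change of 3.09 (interval 2.93 to 3.27). Fosb, a partner of Jun in the AP-1 complex, had 40.6, 271, 83.1, 111 and 922, with an earlier high value on day 2, and a change of 3.05 (interval 2.81 to 3.31). Fos and Jun themselves, at 128, 275, 487, 1348 and 4342 and at 619.5, 295, 617, 1363 and 4433, changed by 1.69 (interval 1.61 to 1.77) and 1.70 (interval 1.62 to 1.78). Both were highest on day 14.

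Egr1, a zinc finger factor of the same response, went from 1289 to 3059 after 1467 on day 0, and its level on days 2 and 5 was 872 and 885. The AP-1 members Junb and Jund went from 628 to 1674 and from 226 to 636, the phosphatase Dusp1 from 146 to 538, and the RNA-decay factor Zfp36 from 618 to 1733. Egr3 and Nr4a3 also rose, from 6 and 9 expected counts on day 10, which are few reads. Nr4a1, Nr4a2, Klf4, Klf6, Myc and Fosl2 stayed within 2-fold, between 0.42 and 0.82. The cAMP response element TGACGTCA was present in 3 of 20 promoters of this list (15%; 3.54% of tested genes), those of Btg2, Dusp1 and Maff.

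Schwann cell and neural crest genes went in both directions. Of 32 measured members of 34, 5 rose (background 4.39%), 7 fell (7.94%) and 20 stayed within 2-fold, with a median of -0.10.

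Among the transcription factors of the lineage, Sox2, which keeps progenitors immature, had normalized counts of 2.97, 7.24, 43.8, 196 and 497 on the 5 days and a change of 1.34 (interval 1.13 to 1.56) (chr3:34650405-34652461, plus strand). Foxd3, a specifier of neural crest, had 7.92, 19.9, 97.8, 264 and 703 and a change of 1.41 (interval 1.23 to 1.59). Sox10, the lineage factor of crest-derived glia, had 6.93, 21.7, 280.3, 1055 and 1993 and stayed within 2-fold, at 0.92 (interval 0.82 to 1.01). All 3 had a higher level at each step from day 2 on and were highest on day 14. Egr2, which drives myelination and belongs to the immediate-early list as well, went from 58.6 to 162.

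The myelin genes named here held falls and no rises. Mag, an adhesion molecule of the inner myelin layer, had 0, 10.2, 3.5, 127 and 21.5 on the 5 days and a change of -2.51 (interval -3.25 to -1.95). Mbp, Pmp22 and Mal, also proteins of myelin, went from 368 to 147, from 1756 to 786 and from 468 to 192. The 8 myelin genes counted here were picked after the values were seen and are not all those of the list. Of the 8, the 4 named above fell (7.94% of all genes tested) and none rose (4.39%). The others, Cnp, Prx, Cldn11 and Gjc3, had changes between -0.11 and 0.24.

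Surface proteins and ligands were divided. Gap43, a growth cone protein that immature and denervated Schwann cells also make, went from 727 to 2411, a change of 1.73 (interval 1.63 to 1.84). Artn, a ligand of the GDNF family, went from 435 to 1077, while its coreceptor Gfra3 was at -0.60. The endothelin receptor Ednrb and the adhesion molecule Ncam1 fell from 113 to 22.3 and from 184 to 37.5. Ngfr, the low-affinity neurotrophin receptor p75, was within 2-fold at 0.70 (interval 0.64 to 0.77) with 4039 normalized counts on day 14, and the neuregulin receptor Erbb3 was at 0.11 (interval -0.01 to 0.22), an interval that includes no change.

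**Figure D3:**
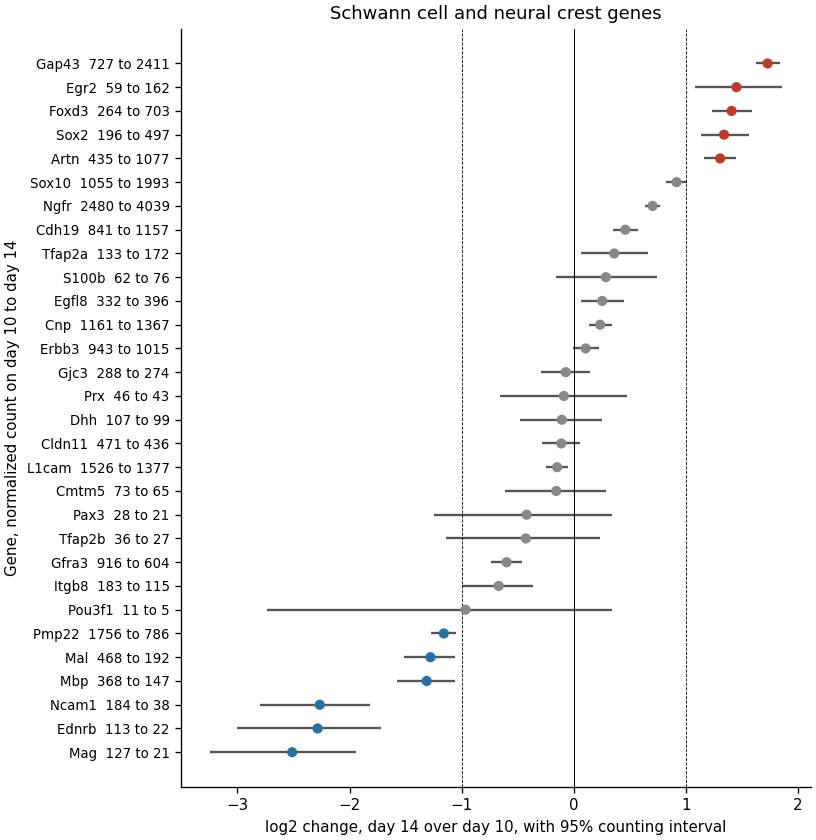
The 30 Schwann cell and neural crest genes reported here, of 32 measured, ordered by log2 change of day 14 over day 10 (horizontal), with normalized counts on both days beside each name. Points are the changes and lines the 95% counting intervals of 1 library a day; the 5 red genes passed 2-fold higher, led by Gap43 at 1.73, and the 6 blue genes passed 2-fold lower, led by Mag at -2.51.

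Of 15 measured neural stem and radial glia genes 4 rose (26.7%) and 3 fell (20%), against a background of 4.39% and 7.94%. By TPM 4 rose and 5 fell. Olig1, an oligodendrocyte lineage factor, had 0, 9.05, 1.75, 22.1 and 209 and a change of 3.18 (interval 2.70 to 3.83), which is a rise from 31 to 234 expected counts. Nestin (Nes), the intermediate filament of neural progenitors, had 670.1, 664, 563, 787 and 2949, with day 14 above all other days and a change of 1.91 (interval 1.81 to 2.01). Ptprz1, a receptor phosphatase of radial glia, fell from 239 to 80.4. The astrocyte genes Gfap and Slc1a3 were at -0.71 and 0.75, within 2-fold, and 1 of 14 measured astrocyte genes fell and none rose.

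11 of 30 pan-neuronal genes reached 10 expected counts in either library. Of these 4 rose (36.4%) and 2 fell (18.2%), against a background of 4.39% and 7.94%. By TPM 2 rose and 4 fell. Uchl1, the ubiquitin hydrolase PGP9.5 of neurons, had 371, 488, 110.3, 51.4 and 359, so that day 14 returned towards the level of day 0, with a change of 2.78 (interval 2.44 to 3.19). Celf4, a neuronal RNA-binding protein, went from 41.1 to 152 and the microtubule regulator Stmn2 from 71.4 to 163, which was 0.88 by TPM. Tubb3, the neuronal beta-tubulin detected by the TuJ1 antibody, went from 84.2 to 161, within 2-fold at 0.92 (interval 0.59 to 1.28). The neurofilament Nefm fell from 55.7 to 21.5 on few reads, and its annotated exons overlap those of Nefl. Map2, a dendritic protein, was at -0.99 (interval -1.50 to -0.52).

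Of 25 measured microtubule-associated and growth cone genes 7 rose (28%, background 4.39%) and 1 fell (4%, background 7.94%). Of the 25, 17 were above 0 and 8 below. The median was 0.42, and 0.69 after centring with 6 rises and 1 fall. By TPM the calls were even, with 4 rises, 4 falls and a median of 0.13. Tuba1a, the alpha-tubulin of developing neurons, had 10713, 8368, 5809, 7639 and 16406, and Tubb2a and Tubb2b went from 801 to 2925 and from 1325 to 4396. Tuba1a was past 2-fold at 1.10 (interval 1.07 to 1.14) but at 0.82 by TPM and 0.87 after centring. Dpysl4, of the collapsin response family, went from 38.6 to 142. Stmn1, a microtubule-destabilizing protein of dividing cells, fell from 301 to 129.6. Map1b, of growing axons, was at 0.15 (interval 0.00 to 0.31) and Map1a at -0.86, both being products of long mRNAs. After centring Map1b and Map1a were at 0.69 and -0.32, and by TPM at -0.13 and -1.21.

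Of 38 measured axon guidance genes 2 rose (5.26%) and 8 fell (21.1%), against a background of 4.39% and 7.94%, with a median of -0.38. After centring on length 3 rose and 1 fell, with a median of -0.03, and by TPM 2 rose and 10 fell. The semaphorin Sema3e and the ephrin receptor Epha5 went from 91.6 to 294 and from 87.6 to 240.4. The netrin receptor Unc5b and Sema3c fell by 1.36 and 1.33, Unc5b being at -0.93 after centring, and the Slit receptor Robo1 went from 161 to 67.9, a change of -1.24 that was -0.70 after centring. Reln, a secreted guidance protein of migrating neurons, had 8.91, 21.7, 18.4, 674 and 441, and was within 2-fold over the last interval at -0.61 (interval -0.77 to -0.45). Of 11 measured Sox genes, Sox13 and Sox2 rose (Sox13 from 102 to 343) and Sox3, Sox5 and Sox11 fell, the first from 14 to 4 expected counts.

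Of 43 measured matrix glycoproteins and proteoglycans 2 rose (4.65%) and 4 fell (9.30%), which is near the background of 4.39% and 7.94%, and by TPM 1 rose and 8 fell. Of 31 collagen chains 2 rose (6.45%) and 4 fell (12.9%), with no rises and 4 falls by TPM and 4 rises and 3 falls after centring. The members below are given for their own values. Tenascin C (Tnc), an anti-adhesive glycoprotein of development and injury, had 2797, 2085, 1846, 2757 and 13832, so that the first 4 libraries lay within a narrow range and day 14 stood 5.02-fold above day 10, at 2.33 (interval 2.28 to 2.38) (chr4:63959785-64047015, minus strand). Fibronectin (Fn1), an adhesive glycoprotein and a mesenchymal marker, had 13458, 14421, 20157, 22611 and 9373 and moved the other way, at -1.27 (interval -1.30 to -1.24). Its level on day 14 was the lowest of the 5 days.

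The laminin chains Lamc1 and Lama2, of basement membranes, fell from 2356 to 869.7 and from 894 to 341. Col28a1, a collagen known from peripheral nerve, had 2.97, 1.81, 62.1, 1058 and 364 and a change of -1.54 (interval -1.70 to -1.38). Col27a1 and Col7a1 went from 685 to 1608 and from 83.5 to 216. Col1a1, the main chain of fibroblast collagen, was within 2-fold at 0.50 (interval 0.47 to 0.52). Among proteases and their inhibitors, 5 of 25 rose (20%, background 4.39%) and 1 fell (4%, background 7.94%), or 4 and 4 by TPM. Mmp17 and Mmp19 went from 504 to 1868 and from 387 to 1248 and the urokinase receptor Plaur from 18.6 to 79.6, while the metalloprotease Adamts12 fell from 257 to 42. Exons of Mmp19 overlap those of Tmem198b in the annotation.

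Of 20 measured regulators and markers of epithelial-mesenchymal transition 2 rose (10%) and 3 fell (15%), against a background of 4.39% and 7.94%. By TPM 1 rose and 5 fell. Vimentin (Vim) had 29392, 26957, 17919.5, 20044 and 40816 and rose by 1.03 (interval 1.00 to 1.05), or 0.66 by TPM. N-cadherin (Cdh2) had 755, 317, 303, 1245 and 612, with a peak on day 10, and fell by 1.02 (interval -1.15 to -0.90), or -0.80 after centring. The transcription factors Snai1, Snai2, Twist2 and Zeb1 had changes of -0.07, 0.01, 0.03 and -0.26, and the first 3 intervals included no change. The ligand Tgfb1 went from 131 to 397 and Tgfb2 from 187 to 84, in opposite directions. In the TGF-beta list 3 of 23 genes rose (13%) and 4 fell (17.4%), or 2 and 7 by TPM. Tgfbi, an adhesion protein named for its induction by TGF-beta, was at 1.12 (interval 1.02 to 1.22).

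Contractile and smooth muscle genes were lower. Of 26 measured members 5 fell (19.2%, background 7.94%) and 1 rose (3.85%, background 4.39%). The median was -0.58, and -0.42 after centring (no rises and 7 falls), and 19 members had an interval wholly below 0. Myl9, the regulatory light chain of smooth muscle myosin, had 2484, 687, 242, 156 and 56.3, lower at each successive day. Myh11 and Myh10, myosin heavy chains, fell from 25 to 5.36 and from 481 to 227. For the CArG box, the element bound by serum response factor, the first search left all letters between the CC and the GG open, and a match was present in 21 of 23 promoters of the list (91.3%) and in 89.3% of tested genes. A stricter search, added after seeing the data, in which each open letter had to be A or T, found 4 of 23 (17.4%; 1.48% of tested genes), that of Myl9 included, 2 of 20 promoters of the immediate-early list and 0 of 41 of the mitosis list. Pdlim7, an adaptor of actin fibres, went from 143 to 316. The YAP target Ccn1, a matricellular protein that is also an immediate-early gene, went from 791 to 2142. Of 20 measured genes in the YAP list 2 rose (10%) and 3 fell (15%), or 2 and 7 by TPM.

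Several signalling lists had members past 2-fold on both sides. In the insulin-like growth factor axis 7 of 17 measured genes fell (41.2%) and 2 rose (11.8%), against a background of 7.94% and 4.39%. The median was -0.51. After centring 5 fell and 2 rose. Relative to all genes the median was -0.53, or -0.30 after centring and -0.14 at 100 or more counts. The receptor substrates Irs2 and Irs1 fell from 80.5 to 15.2 and from 136 to 41.7, and the receptor Igf1r from 90.7 to 33.1. These are long mRNAs, and their changes after centring were -2.11, -1.15 and -1.16. Exons of Irs1 overlap those of Gm9747, which had 133 and 131 expected counts on the 2 days. Stc2, a secreted inhibitor of the protease that releases IGF from its binding proteins, went from 21.7 to 195, a change of 3.11 (interval 2.63 to 3.79), and the binding protein Igfbp2 from 178 to 519.

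LIF is a component of the medium and signals through STAT3. Of 27 measured genes of the IL6 family and STAT3 pathway 6 rose (22.2%) and 1 fell (3.70%), against a background of 4.39% and 7.94%. By TPM 5 rose and 3 fell. The ligands Lif, Clcf1 and Cntf went from 33.6 to 119.8, from 85 to 246 and from 23.6 to 84.9, though exons of Cntf overlap those of Zfp91 in the annotation. Socs3, the feedback inhibitor of the pathway, had 42.6, 183, 544, 405 and 1023 and a change of 1.34 (interval 1.19 to 1.49). Stat3 itself was at -0.39 (interval -0.52 to -0.27), and the acute-phase target Saa3 was lower within 2-fold, from 464 to 252.

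Basic FGF, also in the medium, activates ERK. Of 26 measured genes of the FGF pathway and ERK feedback, 2 rose (7.69%, background 4.39%) and 4 fell (15.4%, background 7.94%). After centring 2 rose and 2 fell, and by TPM 2 rose and 5 fell. Fgf5, a ligand, had 26.7, 34.4, 56.9, 195 and 895 and a change of 2.19 (interval 2.01 to 2.40), and the ERK phosphatase Dusp5 went from 22.1 to 94.7. The ETS factors Etv1 and Etv5 and the phosphatase Dusp4, all ERK-responsive, fell from 97.1 to 27.7, from 266 to 127 and from 65.7 to 19.7. In the Notch list 2 of 21 genes rose (9.52%; background 4.39%) and 3 fell (14.3%; background 7.94%). After centring 1 rose and none fell, and by TPM none rose and 3 fell. The target genes Heyl and Hes1 went from 103 to 299 and from 99.3 to 200.2, while the receptors Notch3 and Notch2 fell from 276 to 96.5 and from 299 to 147, the latter -0.48 after centring. In the Wnt list 2 of 30 genes rose (6.67%) and 3 fell (10%), near the background of 4.39% and 7.94%. The ligand Wnt10b went from 4 to 44 expected counts and the inhibitor Nkd2 from 491 to 1335, and the receptors Fzd4, Fzd6 and Fzd7 fell by 1.26, 1.22 and 1.11.

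Of 25 measured macrophage markers 7 fell (28%; background 7.94%) and none rose, with a median of -0.48 and -0.75 after centring. The summed normalized counts of the list were 389, 3016, 5476, 3370.2 and 2413 on the 5 days. The mannose receptor Mrc1 went from 124 to 47.4, the scavenger receptor Marco from 39.3 to 13.4 and the NADPH oxidase subunit Cybb from 54.6 to 21.5. The complement genes C1qa, C1qb and C1qc and the receptor Trem2 were not lower, with changes between 0.13 and 0.34, all on short mRNAs. Interferon-stimulated genes had 4 falls among 38 (10.5%), near the background of 7.94%, and no rises. Their median was -0.44, and 20 intervals lay below 0. The chemokine Cxcl10, whose exons overlap those of Art3, and the antiviral protein Rsad2 fell from 45.7 to 13.4 and from 44.3 to 15.2. The interferon response element was present in 17 of 28 promoters of this list (60.7%), those of Cxcl10 and Rsad2 included, against 3.78% of tested genes. The part of macrophages in the other lists was not tested.

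Genes of lipid transport included the largest rise among abundant genes. Apod, an apolipoprotein that binds small lipids and is made by fibroblasts and by glia after nerve injury, had 13.9, 133, 632, 1249 and 14074 on the 5 days. It was higher at each day than at the day before, and over the last interval it increased 11.3-fold, at 3.49 (interval 3.42 to 3.57) (chr16:31296192-31314808, minus strand). Apoe, the lipid carrier of glia and macrophages, had 464, 1742, 3387, 4160.2 and 8371 and a change of 1.01 (interval 0.96 to 1.06), or 0.58 after centring. Abca1, the pump that loads cholesterol onto apolipoproteins, fell from 1013 to 333. None of 34 sterol synthesis and uptake genes passed 2-fold.

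Of 16 measured adipocyte genes of 17, 6 rose (37.5%, background 4.39%) and none fell, with a median of 0.83 and 0.62 after centring. After centring 4 rose, and by TPM 5 rose, with no falls in either. Adiponectin (Adipoq) had 0, 0, 8.75, 88.1 and 236, carbonic anhydrase 3 (Car3) had 3.96, 0, 0.875, 61.4 and 294, and the lipid droplet protein Cidec had 0, 0, 0.875, 10.7 and 59. All 3 were below 10 normalized counts until day 5 and highest on day 14. Fabp4, the adipocyte fatty acid carrier, was just within 2-fold, from 847 to 1676. Pparg, the regulator of the lineage, was at -0.11 (interval -0.57 to 0.34) and the lipase Lpl at 0.21.

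Lists of short housekeeping genes were higher with few calls. The medians were 0.49 for the 37 nuclear subunits of respiratory complex I, 0.52 for the 39 of complexes II to V, 0.47 for 76 mitochondrial ribosomal proteins and 0.45 for 34 proteasome subunits. For comparison, the median was 0.03 over all genes and 0.46 in the shortest 10% of genes. Of all the genes in these lists 2 rose and none fell, against a background of 4.39% and 7.94%. After centring on length the medians were 0.02, 0.05, 0.10 and 0.12. Sdhb, a subunit of succinate dehydrogenase, was 1 of the 2 rises, from 333 to 713, and Mrpl36, whose exons overlap those of Ndufs6, was the other.

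**Figure D4:**
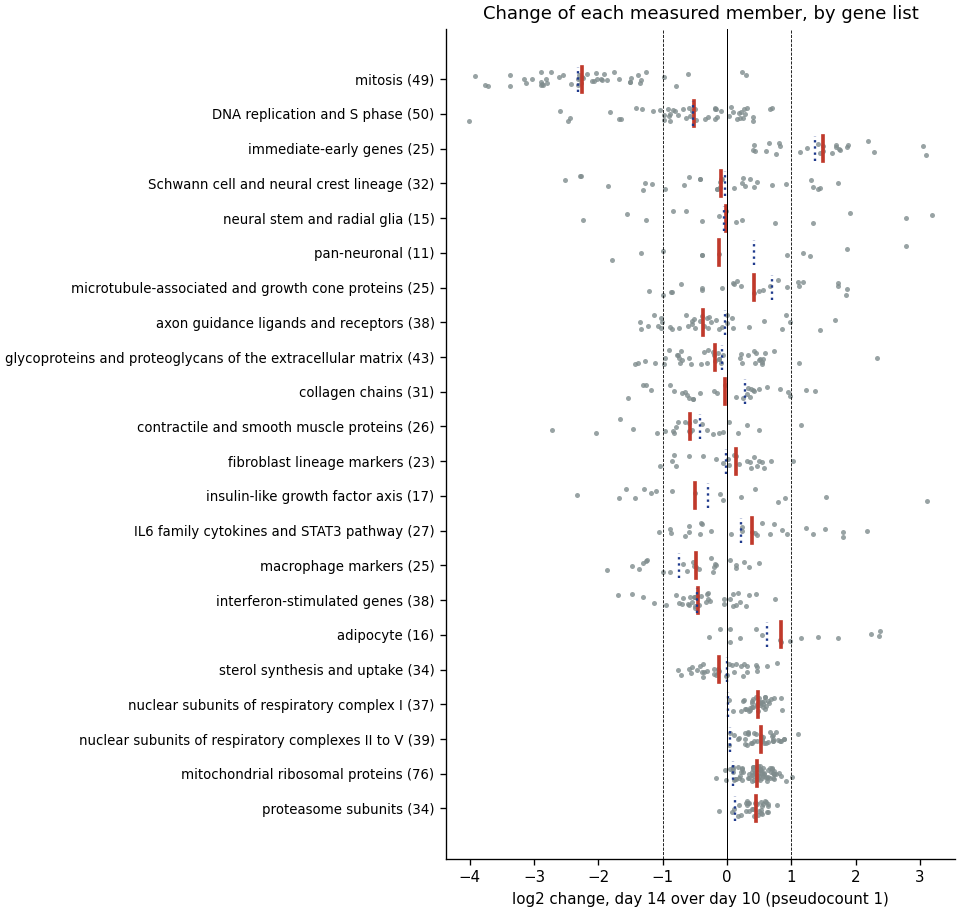
Log2 change of day 14 over day 10 (horizontal) for each measured member (grey points) of 22 gene lists, with the number measured in brackets, the median in red and the median after centring on genes of like length as a dotted blue line; dashed lines mark 2-fold. The mitosis median lies at -2.26 and the immediate-early median at 1.49, while the red and blue medians of the respiratory, mitochondrial ribosome and proteasome lists lie apart.

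Among all genes, members of the lists included, 115 genes rose and 173 fell past 2-fold by TMM-scaled counts, by TPM and after centring among genes with a symbol and 100 or more expected counts. The largest rise of these among genes with counts on both days was Ucn2, urocortin 2, a peptide of the corticotropin-releasing family, which had 4.95, 5.43, 2.63, 32.4 and 419 and a change of 3.65 (interval 3.26 to 4.18) (chr9:108986010-108987164, plus strand). The secreted vascular protein Egfl7 went from 18.6 to 204, Tmem158 from 40 to 395, the actin-binding protein Zfp185 from 18.6 to 187, the EGF receptor ligand betacellulin (Btc) from 14.3 to 114 and the phosphodiesterase Pde1b from 27.8 to 203. Exons of Egfl7 overlap those of Agpat2, which had 276 and 616 expected counts on the 2 days. Reads in the shared stretch cannot be told apart by strand, which the library protocol does not keep. Tom1, an endosomal adaptor, ranked above Ucn2 by the log2 change but was listed at 0 on day 10, with 342, 194, 64 and 113 on the other days. With a floor of 3 counts in place of the 0, its ratio of day 14 to day 10 was 52.6, or 5.72 on the log2 scale. The lower end of its counting interval was 5.40. How reads were assigned to Tom1 on day 10 was not tested.

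Falls outside the cell cycle lists named by the rule included Zim1, an imprinted zinc finger gene, from 176 to 17.9, Megf10, a receptor for engulfment of cell debris, from 256 to 29.5, and Nptx1, a neuronal pentraxin. Nptx1 had 2.97, 224, 1180.4, 92.9 and 10.7, so that it peaked on day 5 and was already lower on day 10. Megf10 had 46.5, 12.7, 80.5, 256 and 29.5, with its peak on day 10. Kank4, Gas2l3 and Xkr4 fell from 87.1 to 9.83, from 577 to 71.4 and from 72.3 to 9.01, and each was highest on day 10. Gpc1, a cell-surface heparan sulfate proteoglycan, and the chaperone Hspa8 were among the 8 most abundant changed genes on day 14, with 377, 545, 639.8, 1580.4 and 7027 and with 14900.3, 13489, 6956, 2649 and 5585. Gpc1 was highest on day 14, whereas Hspa8 regained part of a level that had dropped from day 0 to day 10.

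The gene length trend ran through all 10 bins of equal number. From the shortest bin, of median length 830.0 bases, to the longest, of 6789, the median changes were 0.46, 0.36, 0.26, 0.16, 0.08, 0.01, -0.10, -0.20, -0.31 and -0.49. In the shortest bin 117 genes rose and 59 fell, and in the longest 16 rose and 208 fell. Over the same genes the medians of the shortest and longest bins were -0.71 and 0.71 from day 5 to day 10, which shares the day 10 library, and -0.88 and 0.50 from day 2 to day 5. From day 5 to day 14 they were -0.26 and 0.24. Across 12784 genes, which are not independent replicates and come from the same 2 libraries, Spearman's rho of change with length was -0.47. Its rho with the GC content of the transcripts was 0.29, and 0.23 after centring on length. The part of RNA quality or library preparation in this trend was not tested.

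**Figure D5:**
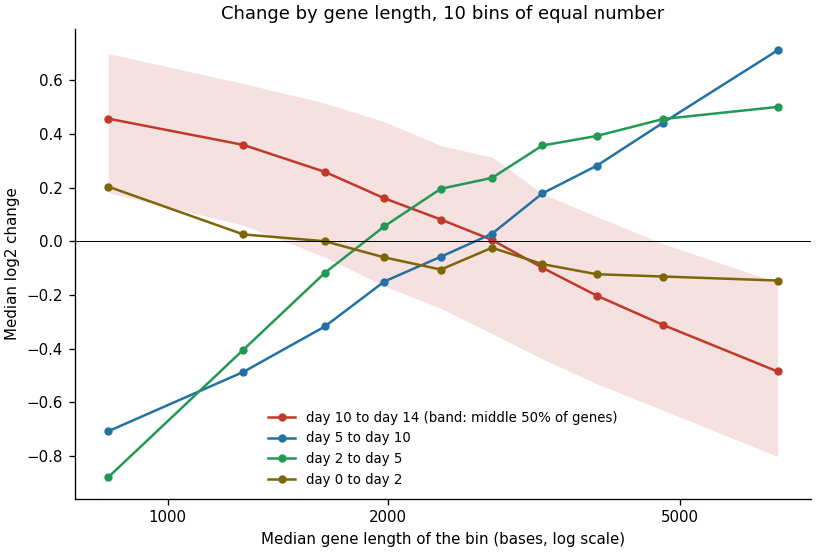
Median log2 change (vertical) in 10 bins of equal number against the median gene length of the bin (horizontal, log scale) for each of the 4 successive intervals, with a band for the middle 50% of genes from day 10 to day 14. The red line runs from 0.46 down to -0.49, while the lines of the 2 intervals before it run upward.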

How the data were processed

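RNA-seq libraries of mouse embryonic fibroblasts (MEFs) at days 0, 2, 5, 10 and 14 were grouped by their labels, and the library labelled day 14 was compared with that labelled day 10. Total RNA was extracted with Trizol and libraries were made with a TruSeq kit that does not mark strand. The submitters' processing notes name Bowtie, RSEM and the mm10 build without versions, and the annotation is not given in the sources used here. The authors deposited RSEM expected counts, which are estimated reads per gene without scaling. The authors also deposited TPM values, which are scaled by gene length and library size, and FPKM values, which were used for no result. Effective length equals gene length in the deposited values of all 5 libraries. Expected counts summed to between 2253748 and 3890334 per library. Symbols and positions came from GENCODE M21 (GRCm38) for 27247 of 27729 genes.

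TMM factors over the 5 libraries were computed with edgeR 4.0.16 in R 4.3.3 on expected counts rounded to whole numbers. Genes with 10 or more expected counts in either library were kept, the pseudocount was 1 and the call was 2-fold. The 95% intervals are Clopper-Pearson intervals of the split of the 2 rounded counts. Reads without molecular identifiers are not independent molecules, so intervals and floors cover counting error only. Length centring subtracted the median of each of 20 bins of equal number. Scripts in Python 3.11.15 were tested on simulated data. With 1 library a day, no test between days was made.

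The members and the 59 gene lists were chosen with earlier results of these data known. The genes named were the 12 largest rises and the 12 largest falls past 2-fold by TMM, by TPM and after centring at 100 or more expected counts (predicted genes left out), up to 4 members of each described list in each direction at 30 or more counts, genes the paper discusses, and the 8 most abundant changed genes on day 14. Some members of the lists are counted but not reported by name here. Other list members were named to complete a group after their values were seen. The CArG box and the CHR search in the S-phase list were added after seeing the data. Alternatives were DESeq2 1.42.0 size factors, TMM over the 2 libraries alone, total counts, TPM, pseudocounts of 0.5 and 5, other filters and fold thresholds, and length centring.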

Additional observations from a re-analysis of the deposited data

How the results depend on the processing

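Each day has 1 library, so no setting replaces a replicate, and intervals cover counting error only. No paired analysis was possible because no day has a second library. The number of genes past 2-fold moved by over 1.5 times with the filter and the threshold: 321 rose and 485 fell at 50 or more counts, 231 and 305 at 100 or more, 1130 and 1917 with no filter, 1806 and 2165 at 1.5-fold, and 109 and 257 at 4-fold, each following from fewer or more genes passing. By TPM 308 rose, against 561. DESeq2 size factors, TMM over the 2 libraries, total counts, both pseudocounts and length centring stayed within 1.5 times for both counts. The median of all genes was -0.24 by TPM and -0.08 with total counts, against 0.03, so medians below are relative to it.

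Relative to all genes, the shortest 10% of genes was at 0.43 and the longest at -0.51. The shortest 10% was at 0.40 with a pseudocount of 5, 0.46 at 100 or more counts and 0.34 with no filter. The longest 10% was at -0.47 by TPM, -0.55 at 100 or more counts and -0.47 with no filter. The mitosis list was at -1.97 by TPM and -1.95 with a pseudocount of 5. After length centring the lists of axon guidance, complex I, complexes II to V, mitochondrial ribosomal proteins and proteasome subunits were at -0.029, 0.022, 0.053, 0.098 and 0.124. Of 164 named genes past 2-fold, 138 remained so by TPM, 124 after centring and 113 by both, and none changed sign in any of the 7 settings run on them.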

Other observations

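Values of lists outside the comparisons above are given here without explanation, beside a background of 4.39% of genes that rose and 7.94% that fell. Of 16 measured retinoid genes 4 rose (25%) and 1 fell, or 2 and 2 by TPM. Dhrs3, which reduces retinal, went from 130.0 to 466 and Aldh1a2, which makes retinoic acid, from 216 to 567, while Aldh1a1 fell from 128 to 58.7. Of 23 complement genes 4 rose (17.4%) and 3 fell, or 3 and 4 by TPM, with C4b from 374 to 810.0 and Cfb from 54.2 to 131, exons of the latter overlapping those of Gm20547. Of 12 measured bone and cartilage genes of 25, 4 rose (33.3%) and 2 fell (16.7%), or 3 and 3 by TPM. Runx2, the osteoblast factor, went from 243 to 723 and the cartilage protein Comp from 47.8 to 139. Osteopontin (Spp1) was just within 2-fold, from 7994 to 4055, but past it at -1.27 by TPM and -1.29 after centring. Among 18 heat shock genes 3 rose (16.7%), or 1 by TPM with 1 fall, with the small chaperone Cryab from 823 to 3076. The chaperones of the endoplasmic reticulum had a median of 0.38 over 20 genes, with 1 rise, Herpud1 from 72.8 to 157. Of 13 fetal growth genes, Hmga1, a chromatin protein, rose from 348 to 825 and Peg3 and Igf2bp3 fell from 2525 to 923 and from 166 to 78.7. After centring they were at 0.97, -0.92 and -0.80, and none of the 13 passed 2-fold. Exons of Hmga1 and Igf2bp3 overlap those of AI413582 and Malsu1 in the annotation.

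None of 51 lysosomal, 22 glycolysis or 19 antigen presentation genes passed 2-fold, and 1 of 21 citric acid cycle genes rose. Of 33 Hox genes 1 rose and 2 fell, and of 45 DNA and histone methylation enzymes 2 fell. Skeletal muscle, endothelial, epithelial and melanocyte lists had 4, 5, 5 and 2 genes with enough counts. Genes encoded by the mitochondrial genome were not analysed here, and 4 of 76 cytosolic ribosomal protein genes were analysed. Of 53 lists with 10 or more measured genes, 45 had a median within 0.5 of 0, and mitosis and immediate-early genes were the 2 with a median past 2-fold.

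Other motif searches in the 300-base promoters gave, for the list each factor is known to serve, TGANTCA (AP-1) in 0 of 20 against 6.17% of tested genes, ACGTG (hypoxia) in 15 of 18 against 29.1% of tested genes, GGAATG (TEAD, YAP targets) in 8 of 16 against 14.4% of tested genes, and GGCGCC (SMAD, BMP list) in 9 of 19 against 25.1% of tested genes. ACAAAG (SOX) was in 4 of 23 against 16% of tested genes in the Schwann list, GTGGGAA (RBPJ) in 5 of 26 against 7.22% of tested genes in the Notch list, CTTTGAA (TCF, which contains the CHR letters) in 1 of 28 against 4.21% of tested genes in the Wnt list and CCACG in 16 of 18 against 52.2% of tested genes in the list of endoplasmic reticulum chaperones. The sterol element TCACNCCAC was in 1 of 23 promoters of the sterol list against 1.42% of tested genes, and the NRF1 site was in 1 of 33 of the complex I list against 2.28%. A match is a description of the letters only.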
